A study of Homo sapiens with 12 samples.

Results

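The genes described here control the passage of a cell from G1 into S phase. They are the D cyclins CCND1, CCND2 and CCND3, the kinases CDK4 and CDK6, the E cyclins CCNE1 and CCNE2, and the CDK inhibitors CDKN1B, CDKN2C and CDKN2D. These 10 genes were taken by gene symbol from the 27514 genes of the deposited expression table, and each symbol was found once. Of the 10, 9 reached the mean level of 1 CPM (reads of a gene scaled to the sequencing depth of its library) that was required for testing, and CCND2 did not.

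RNA sequencing was carried out on 12 samples of the IMR32 line, human neuroblastoma cells in which the transcription factor gene MYCN is present in extra copies. The cells were electroporated (Nucleofector) with siRNA and kept in ordinary growth medium for 72 h, and total RNA was then extracted. There were 4 groups with 3 samples each, given a control siRNA (labelled siCTR, here siCtrl), an siRNA against MYCN (labelled siMYCN_2), an siRNA against HAND2, which encodes another transcription factor (labelled siHAND2_3), or both (labelled siM2+siH2_3, here the combined knockdown). The design addresses what each factor contributes to expression alone and together. All groups are 1 cell line, each target has a single siRNA label, and the labels do not say whether the 3 samples of a group were separate cultures, so p-values measure the spread between these samples, which may be technical.

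As background, D cyclins bind CDK4 or CDK6, and the active complexes phosphorylate the retinoblastoma protein RB1, which releases E2F transcription factors. E2F factors then drive the E cyclins, which activate CDK2, and the genes needed for DNA replication. CDKN2C (p18) and CDKN2D (p19) bind CDK4 and CDK6 directly, whereas CDKN1B (p27) binds cyclin-CDK complexes, above all those of CDK2. In neuroblastoma, high cyclin D1 and high CDK4 activity are well known, and MYCN is a driver of the disease.

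The deposited unit is CPM per gene with a denominator that includes reads outside the listed genes. Depth, read from the smallest step between low values, was 31.6 to 64.2 M reads per sample. The share of reads in listed genes was 64.3 to 65.8% for siCtrl, 61.3 to 63.3% for siMYCN, 56.8 to 61.4% for siHAND2 and 44.3 to 58.4% for the combined knockdown, where replicate 1 was the highest and replicate 3 the lowest. The median log2 fold change of all 12680 tested genes against siCtrl was accordingly 0.006 (siMYCN), −0.135 (siHAND2) and −0.279 (combined knockdown). Results are therefore given on the deposited scale and, where it matters, on a rescaled one, in which a factor per sample, its median gene ratio to the geometric mean of the samples, had been divided out. On the rescaled scale those medians were 0.014, 0.012 and 0.045. A gene is termed called where limma's adjusted p was under 0.05, and fold changes were computed on log2(CPM + 1), so that changes of low genes are understated.

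The targeted genes checked the labels. MYCN was at 964, 1049 and 1015 CPM in the siCtrl samples and at 671, 666 and 708 CPM in the siMYCN samples, 67.5% of siCtrl. In the combined knockdown it was at 555, 458 and 433 CPM, or 47.7% of siCtrl and 61.0% after rescaling. In siHAND2 MYCN was at 84.1% of siCtrl, with all samples below siCtrl, but was not called (adjusted p = 0.086 by limma). After rescaling it was at 93.9% there. HAND2 was at 224, 241 and 254 CPM in siCtrl, at 54.3, 64.9 and 67.7 CPM in siHAND2 (26.0%) and at 86.3, 67.1 and 67.2 CPM in the combined knockdown (30.7%). After rescaling, its levels were 29.1% in siHAND2 and 39.25% in the combined knockdown. HAND2 was then called higher in the combined knockdown than in siHAND2 (log2 fold change 0.43 ± 0.09 SE, adjusted p = 0.00157 by limma). On the deposited scale this difference was not called (0.23 ± 0.12, adjusted p = 0.129 by limma). Both genes have antisense neighbours, and whether reads were counted by strand is not given in the sources used here. HAND2 was also higher in siMYCN than in siCtrl (136%, log2 fold change 0.44 ± 0.12 SE, adjusted p = 0.00618 by limma). Of the 10 adrenergic neuroblastoma markers looked up, HAND2 among them, 9 had a group mean of at least 1 CPM in siCtrl, and their summed level was 769 to 827 CPM in siCtrl, 1111 to 1146 in siMYCN, 747 to 787 with siHAND2 and 698 to 1064 with both. Of 8 mesenchymal or fibroblast genes, 3 had a mean of at least 1 CPM in siCtrl and PRRX1 was at 0 in all samples. Their summed level was 256 to 283 CPM in siCtrl, 211 to 261 in siMYCN, 120 to 148 with siHAND2 and 70.9 to 129 with both. The part of these marker shifts in the results below was not tested. Summed leukocyte markers stayed at or below 0.985 CPM, with CD3E at 0 in every sample, endothelial markers at or below 2.88 CPM and Schwann cell markers at or below 3.21 CPM.

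Promoter sequence is shown for the members whose start regions carry CACGTG, the E-box that dimers of the MYC family with MAX bind, because MYCN is 1 of the 2 targeted factors. RefSeq promoters (GRCh38.p14, from 250 bases before to 50 after a start) were matched for 7 of the 10 members, as 12 windows of 300 bases. CACGTG, which reads the same on both strands, was found in 7.26% of all 35116 promoter windows, and only 33 of them (0.094%) held 3 copies or more. The CDK4 window was among these 33. Its matches began 216, 196 and 101 bases before the start. The first line below holds the outer pair and the second line the inner copy, the other lines hold the single matches of CDK6 and CDKN2C, all are 5′ to 3′ on the strand of the gene, and capitals mark CACGTG.
CDK4, chr12:57752451-57752560, minus strand: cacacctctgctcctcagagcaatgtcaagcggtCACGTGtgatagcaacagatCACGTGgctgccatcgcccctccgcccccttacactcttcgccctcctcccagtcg
CDK4, chr12:57752396-57752421, minus strand: gggtggcggtCACGTGcccagaacgt
CDK6, chr7:92836528-92836553, minus strand: aggccgcggaCACGTGcggagagccg
CDKN2C, chr1:50960515-50960540, plus strand: ttgtgcacctCACGTGgttagtcaca
CDKN2C, chr1:50970166-50970191, plus strand: gctgaataatCACGTGtgaatcgagg

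The CDK6 match began 31 bases after a start, and the CDKN2C matches began 220 and 69 bases before 2 different starts of that gene. No CACGTG was found in the windows of CCND3, CCNE1, CDKN1B or CDKN2D. The E-box of the kind that HAND2 binds with E proteins (CATCTG, or CAGATG on the other strand, in 14.7% of all windows) was present in 1 CDKN2C window, 211 bases before a start. The E2F sites TTTGGCGC (0.652% of all windows) and TTTCCCGC (1.63%), searched on both strands, were in none of the 12. CCND1, CCND2 and CCNE2 were not matched. These are matches of letters and not measured binding.

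After knockdown of MYCN, the messages of cyclin D1 and the inhibitors p27, p18 and p19 rose, whereas those of CDK4 and cyclin E1 fell. All levels given here are of RNA, and protein levels are not among these data. Of the 9 members tested, 6 were called, 4 higher (CCND1, CDKN1B, CDKN2C, CDKN2D) and 2 lower (CDK4, CCNE1). Among all genes tested 33.7% were called, 17.4% higher and 16.3% lower. The same 4 rises and 2 falls were called after rescaling, where the background was 47.9% called, 25.4% higher and 22.5% lower. CCND3, CDK6 and CCNE2 were not called.

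After knockdown of HAND2 the picture was of falls. The 6 called members were all lower (CCND3, CDK4, CDK6, CCNE1, CCNE2, CDKN2C). Of all genes tested 42.7% were called, 12.3% higher and 30.4% lower. After rescaling the same 6 remained lower and CDKN2D was called higher, against 50.8% of all genes, 25.9% higher and 24.9% lower. The median log2 fold change of the 9 members was −0.516 (−0.357 after rescaling).

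In the combined knockdown the messages of the kinases, the E cyclins and cyclin D3 fell and that of p19 rose. On the deposited scale 6 members were called, 5 lower (CCND3, CDK4, CDK6, CCNE1, CCNE2) and 1 higher (CDKN2D), against a background of 67.4% called, 17.4% higher and 50.1% lower. This count is close to the background share. After rescaling all 9 were called. The same 5 were lower, and CCND1, CDKN1B, CDKN2C and CDKN2D were higher, against 70.7% of all genes, 37.7% higher and 33% lower. The 3 knockdown groups were compared with the same siCtrl samples. The plot of log2 fold changes shows each member in the 3 comparisons on both scales.

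**Figure D1:**
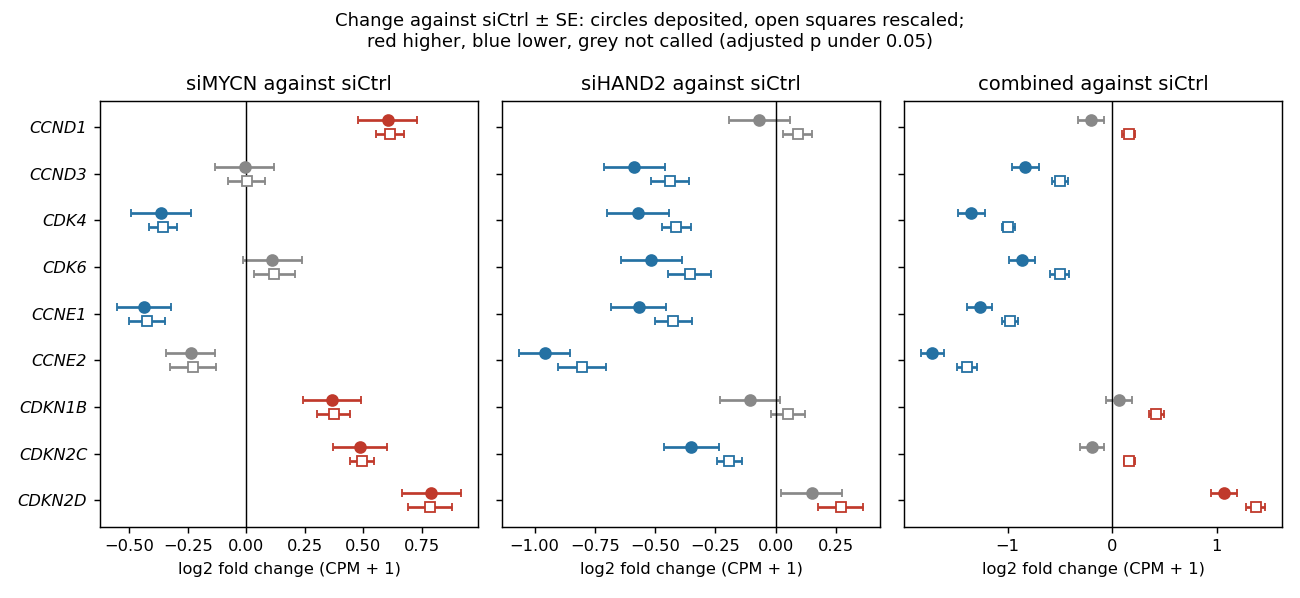
Log2 fold change against siCtrl (x axis, on log2(CPM + 1)) of the 9 tested members (y axis) in siMYCN, siHAND2 and the combined knockdown, as estimate ± SE from limma, with circles for the deposited and open squares for the rescaled scale. Red points are called higher, blue points called lower and grey points not called. CCND1 is at 0.60 in siMYCN, CCNE2 at −0.96 in siHAND2, and CCNE2 at −1.72 and CDKN2D at 1.07 in the combined knockdown, all deposited.

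Of the D cyclins, CCND1 (chr11:69455873-69469243 in hg19, plus strand, 5 exons) was the one expressed at a high level. Its siCtrl samples were at 289, 316 and 308 CPM and its siMYCN samples at 458, 466 and 466 CPM, a mean of 304 ± 14.0 against 463 ± 4.48 CPM (SD, n = 3). All siMYCN samples lay well above every siCtrl sample, and the rise to 152% was called (log2 fold change 0.60 ± 0.13 SE, adjusted p = 0.000627 by limma). The siHAND2 samples, at 308, 293 and 271 CPM, overlapped siCtrl (−0.07 ± 0.13, adjusted p = 0.694 by limma). The combined samples spread from 315 over 278 to 210 CPM in replicates 1, 2 and 3, and were not called on the deposited scale (−0.20 ± 0.13, adjusted p = 0.16). After rescaling they were at 318, 321 and 288, all above the siCtrl samples at 262, 287 and 284, and the difference was called higher (0.16 ± 0.06, adjusted p = 0.0311 by limma). Scaling each sample to its total over the listed genes gave 0.146, which was not called (adjusted p = 0.059). Without the first combined sample, the deposited values were instead called lower (−0.33, adjusted p = 0.011 by limma), so the direction of CCND1 in the combined knockdown turns with the scale.

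CCND3 (chr6:41902671-42016633, minus strand), the D cyclin best known from lymphoid cells, was low. It was at 16.3, 15.6 and 15.2 CPM in siCtrl and at 15.7, 15.8 and 15.4 CPM in siMYCN, groups that overlapped (log2 fold change −0.01 ± 0.13 SE, adjusted p = 0.967 by limma). In siHAND2 it was at 10.4, 10.6 and 9.45 CPM, and in the combined knockdown at 11.2, 7.67 and 6.85 CPM, all below every siCtrl sample. CCND3 thus fell to 64.5% in siHAND2 (−0.59 ± 0.13, adjusted p = 0.000576) and to 54.5% in the combined knockdown (−0.83 ± 0.13, adjusted p = 2.79e-06 by limma). After rescaling the levels were 72.0% and 68.8%. The difference between the combined knockdown and siHAND2 alone was not called on either scale (deposited −0.24 ± 0.13, adjusted p = 0.129, and rescaled −0.07 ± 0.08, adjusted p = 0.509 by limma). Without combined replicate 1 it was called lower on the deposited scale (−0.432, adjusted p = 0.0006 by limma).

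CCND2 (chr12:4382902-4414523, plus strand), the remaining D cyclin, was listed at 0 in 11 samples. The first siHAND2 sample held 0.0633 CPM, which corresponds to 2 reads. At these depths 3 reads, the limit that a count of 0 allows, correspond to 0.0468 to 0.0949 CPM, a bound on counting error only. No fold change is given for it.

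CDK4 (chr12:58141510-58146231, minus strand, 8 exons) was the member with the highest level per length in siCtrl, and it fell in every knockdown. It was at 237, 225 and 232 CPM in siCtrl, at 182, 182 and 175 CPM in siMYCN, at 159, 164 and 144 CPM in siHAND2, and at 114, 88.2 and 72.8 CPM in the combined knockdown. No sample of any knockdown group reached the siCtrl range, and every combined sample lay below every sample of the single knockdowns. The mean was 77.5% of siCtrl in siMYCN (log2 fold change −0.37 ± 0.13 SE, adjusted p = 0.0303), 67.2% in siHAND2 (−0.57 ± 0.13, adjusted p = 0.000886) and 39.6% in the combined knockdown (−1.35 ± 0.13, adjusted p = 1.18e-09 by limma). Rescaled, the 3 levels were 78.0, 75.0 and 50.1%, all called. The siMYCN call was lost on the deposited scale whenever any 1 of its 6 samples was left out (adjusted p 0.059 to 0.099 by limma), while the rescaled call had an adjusted p of 0.000206. The promoter window of CDK4 is the one with 3 copies of CACGTG above, and any part of these copies in the falls was not tested. Of the other members with a match, CDK6 was not called in siMYCN and CDKN2C rose, while CCNE1, without a match, fell. On the other strand CDK4 overlaps TSPAN31, whose siCtrl mean was 8.64 CPM, small beside that of CDK4.

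CDK6 (chr7:92234235-92465942, minus strand, 8 exons), the other kinase that D cyclins bind, had the highest CPM of the members, from a long transcript. It was at 495, 580 and 503 CPM in siCtrl and at 541, 566 and 594 CPM in siMYCN, which overlapped (0.11 ± 0.13 SE on log2, adjusted p = 0.539 by limma). It was at 402, 374 and 328 CPM in siHAND2 and at 302, 329 and 241 CPM in the combined knockdown, below every siCtrl sample. The falls were to 69.9% (−0.52 ± 0.13, adjusted p = 0.00187) and 55.2% (−0.86 ± 0.13, adjusted p = 1.49e-06 by limma), and to 78.0% and 70.6% after rescaling. CDK6 was called lower in the combined knockdown than in siHAND2 alone on the deposited scale (−0.35 ± 0.13, adjusted p = 0.0313) but not after rescaling (−0.15 ± 0.09, adjusted p = 0.185 by limma), and the groups overlapped. That call was also lost without siHAND2 replicate 1, siHAND2 replicate 2 or combined replicate 3. An antisense transcript listed within CDK6, LOC101927497, had a siCtrl mean of 10.1 CPM.

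**Figure D2:**
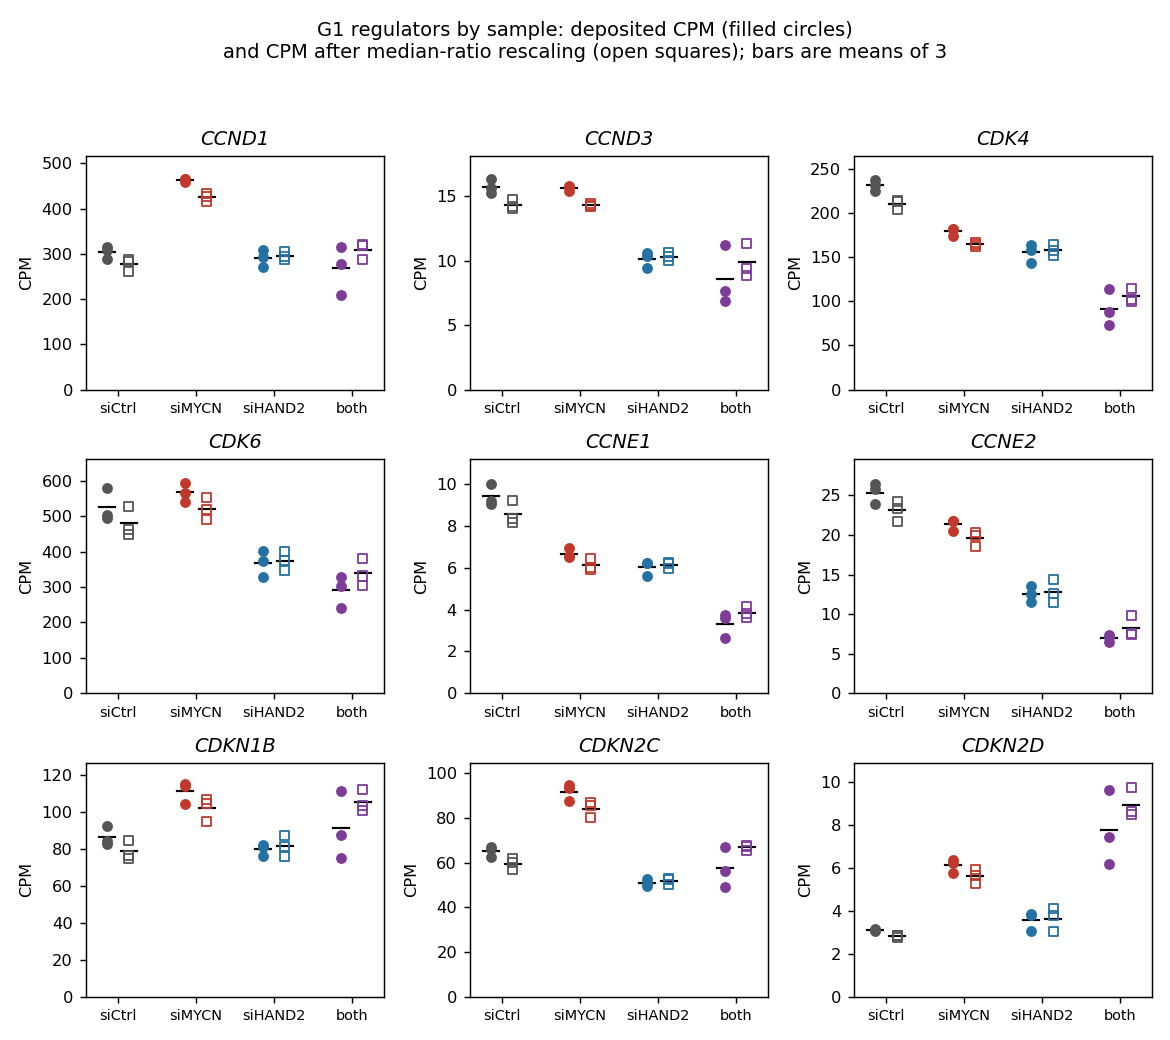
CPM (y axis, linear from 0, own scale per panel) of the 9 tested members in the 12 samples by group (x axis, "both" is the combined knockdown), deposited as filled circles and rescaled as open squares, with bars at the means of 3. CDK4, CCNE1 and CCNE2 are lowest in the combined knockdown, at mean deposited levels of 91.6, 3.33 and 7.00 CPM, CCND1 and CDKN2C are highest in siMYCN, and CDKN2D rises from 3.12 CPM in siCtrl to 7.77 CPM in the combined knockdown.

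The E cyclins activate CDK2 at the border of S phase, and both were lower in each knockdown, CCNE2 in siMYCN without passing the test. CCNE1 (chr19:30302901-30315225, plus strand, 12 exons) was at 9.03, 9.20 and 9.99 CPM in siCtrl, at 6.52, 6.57 and 6.94 CPM in siMYCN and at 6.24, 6.21 and 5.62 CPM in siHAND2. In the combined knockdown it was at 3.76, 3.60 and 2.63 CPM. The single knockdowns were close to each other, all of their samples lay below siCtrl, and the combined samples lay below all of them. CCNE1 fell to 71.0% in siMYCN (log2 fold change −0.44 ± 0.12 SE, adjusted p = 0.00459), to 64.0% in siHAND2 (−0.57 ± 0.12, adjusted p = 0.000301) and to 35.4% in the combined knockdown (−1.27 ± 0.12, adjusted p = 4.36e-10 by limma). Rescaled levels were 71.5, 71.4 and 45.0%.

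CCNE2, on chromosome 8, was at 25.8, 23.9 and 26.4 CPM in siCtrl and at 20.5, 21.7 and 21.8 CPM in siMYCN. Although these groups did not overlap, the difference was not called (−0.24 ± 0.11 SE on log2, adjusted p = 0.0837 by limma, and 0.0707 after rescaling). It was called when the fit held only these 2 groups (adjusted p = 0.0052 by limma), and with the replicate number as a block on rescaled values (adjusted p = 0.021). It was at 11.6, 12.6 and 13.6 CPM in siHAND2 and at 7.39, 6.49 and 7.12 CPM in the combined knockdown, both below every siCtrl sample, and all combined samples lay below all siHAND2 samples. The fall to 49.6% in siHAND2 (−0.96 ± 0.11, adjusted p = 7.25e-08) and to 27.6% in the combined knockdown (−1.72 ± 0.11, adjusted p = 4.08e-13 by limma) gave CCNE2 the most negative log2 fold change of the 9 members in both. Rescaled levels were 55.5 and 35.7%. CCNE2 overlaps INTS8 on the other strand, whose siCtrl mean of 45.8 CPM was above its own, and without known strand use reads of the 2 genes cannot be told apart where they overlap.

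Among the inhibitors, CDKN1B (chr12:12870204-12875317, plus strand), which encodes p27, was at 82.5, 84.1 and 92.1 CPM in siCtrl. It was at 105, 114 and 115 CPM in siMYCN, above every siCtrl sample, a rise to 129% (log2 fold change 0.36 ± 0.12 SE, adjusted p = 0.0247 by limma). This call was lost in 4 of the 6 fits that left out 1 sample (adjusted p 0.079 to 0.099), and after rescaling its adjusted p was 0.000608. In siHAND2 it was at 76.4, 81.2 and 82.2 CPM and was not called (−0.11 ± 0.12, adjusted p = 0.51). The combined samples were at 111, 87.2 and 75.2 CPM in replicates 1, 2 and 3, spread across the siCtrl range (0.06 ± 0.12, adjusted p = 0.668 by limma). After rescaling they were at 112, 101 and 103, all above the siCtrl samples at 74.7, 76.3 and 84.8, and CDKN1B was called higher (0.42 ± 0.07, adjusted p = 0.000101 by limma).

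CDKN2C (chr1:51434367-51440310, plus strand), which encodes p18, moved in opposite directions in the single knockdowns. It was at 66.3, 62.8 and 67.1 CPM in siCtrl, at 94.7, 87.6 and 93.4 CPM in siMYCN and at 50.8, 52.7 and 49.7 CPM in siHAND2. None of the 3 groups overlapped. The rise to 141% in siMYCN had a log2 fold change of 0.48 ± 0.12 SE (adjusted p = 0.00193) and the fall to 78.1% in siHAND2 one of −0.35 ± 0.12 (adjusted p = 0.0164 by limma). The fall was weaker after rescaling (87.3%, −0.19 ± 0.05, adjusted p = 0.00698), and on the deposited scale it was not called without siCtrl replicate 1, siCtrl replicate 3 or siHAND2 replicate 3. The direct difference between siMYCN and siHAND2 was 0.83 ± 0.12 (adjusted p = 3.12e-06) and 0.69 ± 0.05 after rescaling (adjusted p = 1.38e-07 by limma). In the combined knockdown the samples were at 67.2, 56.5 and 49.2 CPM and overlapped siCtrl (−0.19 ± 0.12, adjusted p = 0.145). Rescaled they were at 67.9, 65.3 and 67.4 against 60.0, 57.0 and 61.8 in siCtrl, a small rise that was called (0.16 ± 0.05, adjusted p = 0.0115 by limma). Without the first combined sample the deposited values were called lower (−0.305, adjusted p = 0.0038 by limma), so here too the direction turns with the scale.

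CDKN2D (chr19:10677138-10679656, minus strand, 2 exons), which encodes p19, had the largest rise of the members, both with siMYCN alone and with both siRNAs. It was at 3.06, 3.17 and 3.12 CPM in siCtrl and at 6.25, 5.76 and 6.38 CPM in siMYCN, 197% of siCtrl (log2 fold change 0.79 ± 0.13 SE, adjusted p = 3.13e-05 by limma). In siHAND2 it was at 3.80, 3.06 and 3.88 CPM, overlapping siCtrl (0.15 ± 0.13, adjusted p = 0.361), while rescaled values were called higher (0.27 ± 0.09, adjusted p = 0.0262). In the combined knockdown it was at 9.66, 7.46 and 6.19 CPM, above every siCtrl and siHAND2 sample, 249% of siCtrl (1.07 ± 0.13, adjusted p = 5.37e-08 by limma) and 315% after rescaling. Of the 9 members it was the only one called higher in the combined knockdown on both scales.

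Dividing CPM by the length of the canonical annotated transcript sets the genes on a per-length scale. In siCtrl the order was CDK4 (124 ± 3.31 CPM per kb, SD, n = 3), CCND1 (71.8 ± 3.29), CDKN2C (65.7 ± 2.32), CDK6 (45.1 ± 4.01) and CDKN1B (35.8 ± 2.14). Well below these came CCNE2 (9.49 ± 0.493), CCND3 (7.76 ± 0.274), CCNE1 (4.81 ± 0.261) and CDKN2D (2.19 ± 0.0408). The closest neighbours were CCND1, with samples from 68.2 to 74.5 CPM per kb, and CDKN2C, with samples up to 67.5. The place of CDKN2C depends on the transcript used, since its longest coding transcript of 2904 bases, in place of 995, would put it at 22.5 CPM per kb. In the combined knockdown CDK4, at 49.1 ± 11.2 CPM per kb with samples from 39.0 to 61.1, was no longer above CCND1 at 63.2 ± 12.6 with samples from 49.6 to 74.3, and the 2 overlapped.

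The combined knockdown was also set against each single knockdown. Against siMYCN, 8 of the 9 members were called, all lower, with CDKN2D the exception (0.28 ± 0.13 SE on log2, adjusted p = 0.0601 by limma), where 58.9% of all genes were called. Of the 12680 genes, 1131 were called higher there and 6340 lower, and after rescaling 3806 higher and 3378 lower. CCNE2 fell the most (−1.48 ± 0.11, adjusted p = 1.5e-11), followed by CDK4 (−0.98 ± 0.13) and CDK6 (−0.97 ± 0.13). After rescaling 8 were called again, 7 lower and CDKN2D higher (0.59 ± 0.09, adjusted p = 0.000104), where 56.7% of all genes were called, and CDKN1B, at 0.04 ± 0.07, was not (adjusted p = 0.612 by limma). The deposited call of CDKN1B (−0.30 ± 0.12, adjusted p = 0.0388) was also lost without siMYCN replicate 2, siMYCN replicate 3, combined replicate 2 or combined replicate 3 (adjusted p 0.1 to 0.14 by limma). CCND1 was 0.81 lower on the log2 scale than in siMYCN alone, and 0.46 lower after rescaling.

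Against siHAND2, 5 members were called where 40.3% of all genes were. Of the 12680 genes, 1109 were called higher there and 3995 lower. CDK4 (log2 fold change −0.78 ± 0.13 SE), CCNE2 (−0.76 ± 0.11), CCNE1 (−0.71 ± 0.12) and CDK6 were lower and CDKN2D was higher (0.92 ± 0.13, adjusted p = 4.11e-06 by limma). After rescaling 6 were called where 49.7% of all genes were, CDK4, CCNE1 and CCNE2 lower and all 3 inhibitors higher, with CDKN1B at 0.37 ± 0.07 and CDKN2C at 0.36 ± 0.05. Between the single knockdowns, 7 members were called where 35% of all genes were, each of them higher in siMYCN than in siHAND2. Of the 12680 genes, 3304 were called higher there and 1139 lower. After rescaling the same 7 members were called higher, where 2837 genes were higher and 2811 lower. CDK4 and CCNE1 were not called on either scale (deposited 0.21 ± 0.13, adjusted p = 0.223, and 0.13 ± 0.12, adjusted p = 0.402 by limma). On the deposited scale CDK4 was called in a fit of only these groups (adjusted p = 0.014 by limma).

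Whether the effects of the knockdowns added up on the log2 scale was tested by the interaction, the combined value minus siMYCN minus siHAND2 plus siCtrl. It was called for 2 of the 9 members, both negative, where 4.01% of all genes were called. The median interaction of all tested genes was −0.181, and 463 of the 508 genes called were negative. For CCND1 it was −0.74 ± 0.18 SE (adjusted p = 0.0179) and −0.55 ± 0.09 after rescaling (adjusted p = 0.00168 by limma), where 6.14% of all genes were called and the median was −0.009. The rise of CCND1 in siMYCN to 152% thus had no counterpart of that size in the presence of siHAND2, where the combined samples (210 to 315 CPM) overlapped the siHAND2 samples (271 to 308 CPM). For CCNE2 the interaction was −0.52 ± 0.15 (adjusted p = 0.0455), and it was not called after rescaling (−0.36 ± 0.14, adjusted p = 0.141 by limma). The call of CCND1 was lost without siCtrl replicate 1, siMYCN replicate 2, siHAND2 replicate 1 or siHAND2 replicate 2 (adjusted p 0.054 to 0.06), and that of CCNE2 in 10 of 12 such fits. Without combined replicate 1, which had the highest share of reads in listed genes of its group, 7 members were called. The share of all genes called in that fit is not given here. For the other 7 members the interaction was not called with all samples, and for CDK4 it was −0.41 ± 0.18 (adjusted p = 0.197 by limma).

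Ratios of 2 genes within a sample do not depend on the scaling of the library. They were taken from CPM without division by transcript length. Length cancels in the change of a ratio between groups, but the level of a ratio is not the balance of the 2 messages. The ratio of CCND1 to CDK4 was 1.22, 1.40 and 1.33 in the siCtrl samples, 2.52, 2.57 and 2.67 in siMYCN, 1.94, 1.78 and 1.88 in siHAND2 and 2.76, 3.15 and 2.89 in the combined knockdown. All knockdown samples were above all siCtrl samples, with group ratios 1.96, 1.42 and 2.23 times that of siCtrl. The ratio of CDKN1B to CDK4 was 0.348, 0.374 and 0.397 in siCtrl, and it was 0.973, 0.989 and 1.03 in the combined knockdown, a 2.68-fold higher group ratio. It was 1.67 times that of siCtrl in siMYCN and 1.38 times in siHAND2, again without overlap.

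The ratio of CDKN2C to CDK4 was 0.280, 0.279 and 0.289 in siCtrl and 0.590, 0.641 and 0.676 in the combined knockdown, 2.25 times higher as a group. The siMYCN samples (0.483 to 0.535) and the siHAND2 samples (0.320 to 0.346) also lay above siCtrl. The ratio of CDK6 to CDK4 was 1.39 times that of siCtrl in siMYCN and 1.41 times in the combined knockdown. In siHAND2 it was 2.53, 2.28 and 2.28 against 2.09, 2.58 and 2.17 in siCtrl, with overlap (exact permutation p = 0.6, two-sided). The ratio of CCNE2 to CCNE1 was higher in siMYCN (group value 3.20) than in siCtrl (2.70) and lower in siHAND2 (2.09), both without overlap, while the combined samples (1.80 to 2.71) overlapped siCtrl. Of the 15 comparisons of a ratio with siCtrl, 13 showed no overlap of the groups. These comparisons are not independent of each other. All used the same siCtrl samples, and every ratio except that of CCNE2 to CCNE1 had CDK4 as its denominator. CDK4 itself lay below siCtrl in each knockdown. The share of all gene pairs without overlap is not given here. With 3 samples against 3, an exact two-sided permutation test cannot go below p = 0.1, which these 13 reached, and the value adjusted over the 15 was 0.115, so none passed 0.05.

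**Figure D3:**
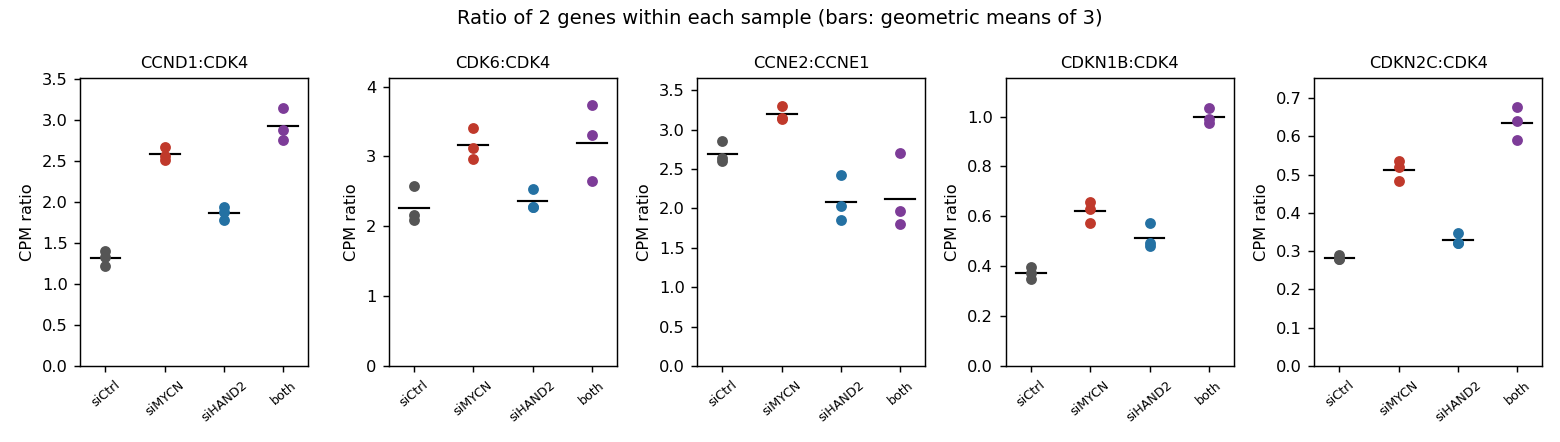
Ratio of the CPM of 2 members within each sample (y axis, linear from 0, own scale per panel) by group (x axis, "both" is the combined knockdown), with 1 point per sample and bars at the geometric means of 3. CCND1:CDK4 goes from 1.31 in siCtrl to 2.58 with siMYCN and 2.93 with both, and CDKN1B:CDK4 from 0.372 to 0.998 in the combined knockdown.

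The members fell into patterns across the 12 samples, described here by Pearson's r of rescaled log2 values. The points share the 4 groups, so these values describe the group pattern and carry no p. CDK4 ran with CCNE1 (r = 0.975) and CCNE2 (0.903) and against CDKN2D (−0.895), CCNE1 also ran against CDKN2D (−0.913), and CCND1 ran with CDKN2C (0.844). CCND1 and CDK4, which form 1 complex, showed no common pattern (−0.083). Among 10183 other genes, the closest pattern to CDK4 was that of ALDH1B1, a mitochondrial aldehyde dehydrogenase (r = 0.998). Its levels in siMYCN, siHAND2 and the combined knockdown were 77.3, 66.1 and 38.4% of siCtrl, beside 77.5, 67.2 and 39.6% for CDK4. For CCNE2 it was PLK4, the kinase of centriole duplication (0.993, with 82.4, 52.1 and 29.5%), for CCND3 ZWILCH, a kinetochore protein (0.982), and for CCNE1 FAM136A (0.993). CCND1 was closest to SYT4, a synaptotagmin of neuronal vesicles (0.979), at 185% of siCtrl in siMYCN and 88.3 and 88.1% in the other 2 groups. CDKN2C was closest to CDH6, a cadherin (0.985), and CDKN2D to ARVCF, a catenin (0.985), which stood at 216, 129 and 250% of siCtrl. CDK6 was closest to MFAP3L (0.969) and CDKN1B to ABI1 (0.980). Each of these genes was picked for the highest r in these same samples, so the closeness of its levels follows from the choice. How many other genes had a similar r is not given here.

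Other genes of the G1 pathway were described by 4 lists. All 13 pocket protein and E2F genes were tested. In siMYCN 4 were called, all lower, in siHAND2 11 lower and in the combined knockdown 12 lower, with median log2 fold changes of −0.196, −0.511 and −1.144 beside 0.006, −0.135 and −0.279 for all genes. The share called was 30.8, 84.6 and 92.3% of the list, beside 33.7, 42.7 and 67.4% of all genes, so that in siMYCN it was near the share of all genes called in either direction, with 16.3% of all genes called lower. After rescaling 8 were lower in siMYCN, 9 lower and 1 higher in siHAND2 and 11 lower and 1 higher in the combined knockdown, which is 61.5, 76.9 and 92.3% of the list beside 47.9, 50.8 and 70.7% of all genes. The rescaled medians were −0.186, −0.362 and −0.819, beside 0.014, 0.012 and 0.045. RB1, the substrate of the D cyclin kinases, was at 108.6% of siCtrl in siMYCN, which was not called (adjusted p = 0.501), and fell to 73.9% with siHAND2 and 61.5% with both siRNAs (adjusted p = 2.09e-05 by limma). E2F1, an activating E2F, was at 70.7, 70.4 and 73.5 CPM in siCtrl and at 34.2, 27.1 and 26.5 CPM in the combined knockdown (log2 fold change −1.27 ± 0.11 SE). E2F7, a repressive E2F, had the largest fall of the list in each knockdown, to 50.8, 43.1 and 17.4% of siCtrl.

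Of 4 other CDK inhibitors, only CDKN1A and CDKN1C passed the filter. CDKN1C, which encodes p57, was at 4.13, 4.11 and 4.46 CPM in siCtrl, at 7.68, 8.25 and 7.72 CPM in siMYCN, at 7.82, 7.71 and 6.98 CPM in siHAND2 and at 13.5, 10.8 and 8.31 CPM in the combined knockdown. It rose in all 3 on both scales, by 0.76 ± 0.13, 0.70 ± 0.13 and 1.16 ± 0.13 on the log2 scale (adjusted p = 4.7e-05, 8.22e-05 and 1.32e-08 by limma). CDKN1A, which encodes the p53 target p21, was not called in any of them, with adjusted p of 0.303, 0.232 and 0.0575. CDKN2A and CDKN2B, with means over all samples of 0.776 and 0.111 CPM, were not tested. CDKN2A was at 1.57, 1.35 and 1.69 CPM in siCtrl. Its means in siMYCN, siHAND2 and the combined knockdown were 49.5, 34.3 and 18.5% of siCtrl. All knockdown samples lay below every siCtrl sample, opposite in direction to CDKN1C.

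In the list of the CDK2 module and the turnover of G1 regulators, 4, 8 and 10 of the 15 genes were called in siMYCN, siHAND2 and the combined knockdown, all lower. These are 26.7, 53.3 and 66.7% of the list. Of all genes, 33.7, 42.7 and 67.4% were called in either direction and 16.3, 30.4 and 50.1% lower. The list was thus near the share called in either direction and above the share called lower. Its medians were −0.118, −0.32 and −0.46 on the log2 scale beside 0.006, −0.135 and −0.279. After rescaling the calls were 7 lower and 1 higher, 7 lower and 2 higher, and 7 lower and 3 higher, or 53.3, 60 and 66.7% beside 47.9, 50.8 and 70.7% of all genes, and the medians were −0.108, −0.171 and −0.126. CDK2, the kinase of the E cyclins, was at 72.3, 65.8 and 70.8 CPM in siCtrl. It fell to 47.6% with siHAND2 and 25.2% with both siRNAs (log2 fold change −1.94 ± 0.12 SE, adjusted p = 6.25e-13 by limma), and in siMYCN it was at 80.6%, called only after rescaling (adjusted p = 0.0059). CDC25A, the phosphatase that activates CDK2, fell to 74.0, 55.9 and 24.6%. CKS1B, a cofactor in the degradation of p27, fell to 77.6, 44.7 and 30.8%. SKP2, which with CKS1B marks p27 for degradation, was at 85.3% in siMYCN (not called on the deposited scale, adjusted p = 0.156) and fell to 74.6 and 46.3% in the other 2.

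Of the 18 S phase and later genes, 5 were called lower in siMYCN and all 18 in siHAND2 and in the combined knockdown, with medians of −0.238, −0.857 and −1.745 on the log2 scale beside 0.006, −0.135 and −0.279 for all genes. The share called in siMYCN, 27.8%, lay between the 33.7% of all genes called in either direction and the 16.3% called lower, while in siHAND2 and the combined knockdown 42.7 and 67.4% of all genes were called, 30.4 and 50.1% lower. After rescaling 10, 18 and 18 were lower, and none was higher, where 22.5, 24.9 and 33% of all genes were lower. MCM4, a subunit of the replicative helicase, fell to 71.5, 51.0 and 22.9% of siCtrl. CDC6, which loads that helicase, fell to 72.3, 51.0 and 21.8%, and CCNB1, a mitotic cyclin, to 77.8, 50.0 and 30.0%. CCNA2, the S phase cyclin, was at 87.0% in siMYCN, called only after rescaling, and fell to 55.1 and 29.7%. CDK1, the mitotic kinase, was at 84.4%, also called only after rescaling, and fell to 47.3 and 31.2%. The interaction was called for 12 of the 18, all negative, where 4.01% of all genes were called, and for 13 after rescaling, where 6.14% were. In bulk RNA, fewer cycling cells and less of a message per cell cannot be told apart. The plot of the 4 lists shows these changes gene by gene.

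**Figure D4:**
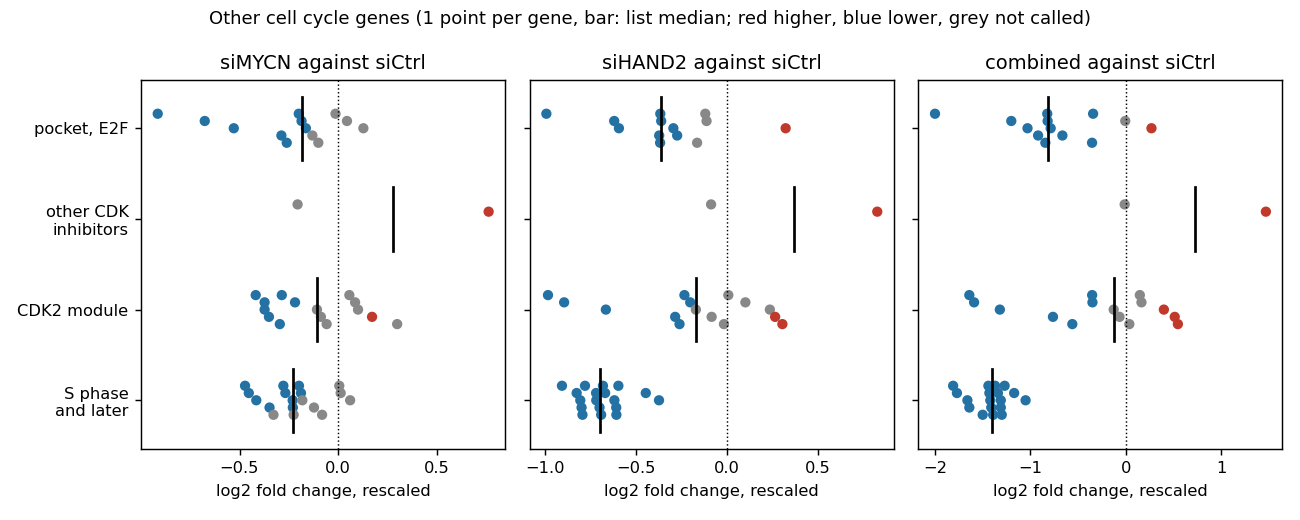
Log2 fold change against siCtrl on the rescaled scale (x axis) of each tested gene of the 4 lists (rows) in siMYCN, siHAND2 and the combined knockdown, with 1 point per gene and a bar at the median of the list. Red is called higher, blue called lower and grey not called. All 18 S phase and later genes are called lower in siHAND2 and in the combined knockdown, with medians of −0.698 and −1.401, and CDKN1C is the called gene among the other CDK inhibitors.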

How the data were processed

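Gene expression was measured in 12 samples, 4 groups of 3. The authors deposited CPM values per gene. Per the submitters' processing notes, STAR 2.5.1 and Partek were used with the hg19 (GRCh37) build. The counting tool, annotation and use of strand are not given in the sources used here. The lowest deposited value, 1e-04, stood in place of 0 and was subtracted throughout. Divided by the step of 1 read, 90.2 to 91.8% of values under 20 reads and 82.4 to 84.1% of those from 20 to 200 reads were whole, so no count test was run.

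A model with 4 groups was fitted to log2(CPM + 1) of the 12680 genes averaging 1 CPM or more with limma 3.58.1 (lmFit, eBayes with trend) in R 4.3.3, for 7 two-sided contrasts, with Benjamini-Hochberg adjustment over all genes and a threshold of 0.05. The script was tested on simulated data. For rescaling, the median over genes averaging 5 CPM or more of the ratio to the geometric mean of the samples was divided out of each sample. Ratios were compared by exact permutation.

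The members and lists were chosen with earlier results of these data known. Genes named are all members, both targets, per list the called gene with the largest rise and fall in each knockdown and 8 preset genes (CDK2, RB1, E2F1, CDKN1A, CCNA2, CCNB1, CDC25A, SKP2), and for each member the gene of highest r. Exons, transcript lengths and strand come from a GENCODE annotation of GRCh37, and promoters from RefSeq on GRCh38.p14. No pair of samples was identical, and the mean chi-square per gene between samples of a group was 3.35 to 37.7.

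The titles give the groups shared replicate numbers, and running numbers in the column headers order the samples by replicate across the groups. Deviations from the group means correlated between same-numbered samples above 0.1 in every pair for siCtrl with siMYCN (0.44, 0.147 and 0.308). The same held for siMYCN with siHAND2 (0.33, 0.137 and 0.316), but not for the other pairs of groups. For siCtrl with siHAND2 the values were 0.317, −0.074 and 0.423. This limit cannot decide whether the samples were paired. The alternatives tried were other pseudocounts, filters, thresholds, scalings, a fit of only the groups compared, eBayes without trend, a replicate block and leaving out each sample.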

Additional observations from a re-analysis of the deposited data

Results flagged for a closer look

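The effect of the MYCN siRNA differed between cells without and with the HAND2 siRNA for 2 of the 9 tested members by the test of the interaction, which was called for 4.01% of all genes. For CCND1 the interaction was −0.74 on the log2 scale (adjusted p = 0.0179 by limma), and for CCNE2 it was −0.523 (adjusted p = 0.0455 by limma). In CCND1 the siMYCN samples were higher than siCtrl by 0.60 on the log2 scale, while the combined samples differed from siHAND2 by −0.13 (adjusted p = 0.416). In CCNE2 the corresponding values were −0.24 and −0.76. Rescaling left the CCND1 call in place (−0.55) and ended the CCNE2 call (−0.357, adjusted p = 0.141 by limma). Leaving out 1 sample ended the CCND1 call in 4 of 12 fits (adjusted p 0.054 to 0.06) and the CCNE2 call in 10 of 12 (adjusted p 0.06 to 0.13).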

How the results depend on the processing

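The number of members called stayed within 1.5 times its main value in the 6 comparisons of 2 groups under every alternative run except an added fold change limit. When a log2 change of 1 or more in size was also required, the count was 0 in siMYCN and in siHAND2 against siCtrl, 1 in the combined knockdown against siMYCN, 0 against siHAND2, 0 between the single knockdowns and 0 for the interaction. In the combined knockdown against siCtrl, CDK4 (−1.35), CCNE1 (−1.27), CCNE2 (−1.72) and CDKN2D (1.07) met this limit. The interaction count, 2 as reported, was 0 at an adjusted p under 0.01 and with no filter on low values, and 1 without the eBayes trend, after either rescaling, and with the replicate block together with the median-ratio rescaling. The cause of these changes in the count was not tested. Of the 12680 genes, the interaction was called for 169 at an adjusted p under 0.01. It was called for 779 after median-ratio rescaling and for 795 after scaling to the total over the listed genes. For the other settings the share of all genes called is not given here. No share of all genes called is given beside the following counts with 1 sample left out. Leaving out 1 sample gave 4 to 5 calls in siMYCN against siCtrl, 5 to 6 in siHAND2, 6 to 8 in the combined knockdown, 7 to 8 for the combined knockdown against siMYCN, 4 to 7 against siHAND2, 7 in every fit between the single knockdowns, and 0 to 7 for the interaction, with 0 without siCtrl replicate 1, siMYCN replicate 2, siHAND2 replicate 1 or siHAND2 replicate 2 and 7 without combined replicate 1. With no filter, the adjusted p from limma rose above 0.05 for CDK4 (0.079) and CDKN1B (0.055) in siMYCN, CDKN1B in the combined knockdown against siMYCN (0.067), CDK6 against siHAND2 (0.085) and the interactions of CCND1 (0.11) and CCNE2 (0.068). With only the groups compared it rose to 0.12 for that CDKN1B difference and 0.13 for that of CDK6, and fell to 0.0052 for CCNE2 in siMYCN and 0.014 for CDK4 between the single knockdowns.

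Of the differences that changed direction, 1 was called on the deposited scale, that of CDKN1B in the combined knockdown against siMYCN (−0.302). With median-ratio rescaling, with or without the replicate block, the log2 difference became 0.00103 for CCND3 in siMYCN, 0.091 for CCND1 and 0.0511 for CDKN1B in siHAND2, 0.156 for CCND1 and 0.164 for CDKN2C in the combined knockdown, 0.0447 for CDKN1B in the combined knockdown against siMYCN, 0.0647 for CCND1 against siHAND2, and −0.000187 for CCNE1 between the single knockdowns. Scaling to each total over the listed genes gave 0.0502 for CCND3 in siMYCN, 0.0635 for CCND1 and 0.0239 for CDKN1B in siHAND2, 0.146 for CCND1 and 0.155 for CDKN2C in the combined knockdown, and 0.0825 for CCND1 against siHAND2. An alternative chosen after seeing the data, rescaling without the third combined sample, gave 0.205 for CCND1, 0.158 for CDKN2C, 0.0588 for CDKN1B against siMYCN, 0.114 for CCND1 against siHAND2 and 0.00767 for the interaction of CDKN1B. Leaving out 1 sample gave ranges that crossed 0 for CCND3 in siMYCN (−0.0298 to 0.0174), CDKN1B in the combined knockdown (−0.0875 to 0.19), CCND1 in the combined knockdown against siHAND2 (−0.262 to 0.0292), the interaction of CDKN2D (−0.018 to 0.266) and the log2 ratio of CDK6 to CDK4 in siHAND2 (−0.00276 to 0.15).

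The replicate block as such left 6 calls in siMYCN against siCtrl, where 4926 of the 12680 genes were called. It left 7 between the single knockdowns, where 5163 genes were called. In these 2 comparisons same-numbered samples correlated above 0.1 in every pair. Together with the median-ratio rescaling the block gave 7 calls in siMYCN against siCtrl, CCNE2 being the call added (−0.229, adjusted p = 0.021 by limma), and 7 between the single knockdowns. The share of all genes called with both steps together is not given here. Rescaling without the block called 6071 of the 12680 genes in siMYCN against siCtrl and 5648 between the single knockdowns. Elsewhere the block as such added 1 call, CDKN2D in the combined knockdown against siMYCN (9 called in place of 8, adjusted p = 0.0404 by limma). There 8069 of the 12680 genes were called with the block. The lowest value of the 9 tested members was 2.63 CPM, far above the CPM of 3 reads, and at these depths CCND2 was not detectable beyond 2 reads in 1 sample.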
